A study of Homo sapiens with 12 samples.

Results

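The 42 mitosis genes described here encode the proteins that carry a cell through mitosis: cyclins and CDK1, mitotic kinases, the spindle checkpoint, the anaphase machinery, kinetochores, spindle motors, cytokinesis proteins and chromosome proteins. They were given as a list of gene symbols. Each was represented by the probe set with that single symbol and the highest mean over the 12 arrays. All 42 of 42 genes had such a probe set, among 19775 named genes, and all 42 had a mean at or above the filter of 4.02, so all 42 were among the 12824 genes tested.

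The study looked for mRNAs bound by miR-21 in Jurkat cells, an established human T-cell leukaemia line. Cells were transduced with a construct encoding miR-21 or with the matching control vector. From each, RNA was taken as Total RNA, as RNA that an AGO2 antibody brought down by immunoprecipitation (IP), and as RNA brought down by control IgG. The 6 groups were thus Total RNA, IgG IP and AGO2 IP, each from control vector and from miR-21 cells, with 2 arrays per group. All groups shared the Jurkat background, RPMI medium with 10% fetal bovine serum and a transduced vector, and no group was without a vector. The sources used here name neither the vector's promoter nor whether the transduced cells were pooled or cloned. The level of miR-21 itself was not analysed here, so the construct labels were not checked against it. An amount of 1 ug of Total RNA but 100 ng of IP RNA was labelled, so the labelled amount and the fraction cannot be told apart.

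AGO2 is the Argonaute protein that holds a miRNA and pairs it with target mRNAs, mostly through bases 2 to 8 of the miRNA, its seed. Mitotic mRNAs are made in waves late in the cell cycle, driven at many promoters by the DREAM and MYB-MuvB complexes, which contact CHR elements, and by NF-Y, which binds CCAAT boxes. In leukaemia lines such as Jurkat, which divide continuously, these mRNAs are abundant. A lower value in an IP than in Total RNA is a lower signal relative to other mRNAs on the array. Recovery with the antibody, labelled amount and RNA integrity were not told apart. This signal is a different quantity from the amount of the mRNA in the cell.

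The mature miRNA of the construct is shown because the study was built around it, with its seed in capitals. The sequence is from RefSeq on build GRCh38.p14, at chr17:59841273-59841294 on the plus strand, and is 22 bases long.
hsa-miR-21-5p: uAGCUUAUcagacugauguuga

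Promoters were examined because these genes are known to be transcribed together. RefSeq's promoter table (GRCh38.p14) held 36 of the 42 genes. AURKA, BIRC5, TTK, UBE2C, TPX2 and RACGAP1 had no entry. In the 250 bases before the start site, on both strands, the letters CCAAT were found in 29 of the 36 genes (80.6%), against 34.9% of the 10355 tested genes with an entry and 33% of all 27303 promoters. The letters TTTGAA, the core of the CHR element, were found in 21 of the 36 (58.3%), against 8.43% and 13.6%. Both were present in 19 (52.8%), against 3.45% and 4.85%. CDC25C, CENPE, NUF2, NDC80 and KIF2C had neither. These matches describe the letters in a window and were not tested as binding sites. Only these exact letters were searched, so a gene without them is not shown to lack a CHR element or an NF-Y site.

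The last 200 bases before the start site are printed for 5 genes that differed in the IPs: MKI67 and TOP2A, which were low in both IPs, CCNA2 and CCNB1, cyclins that were high in AGO2 IP of replicate 1, and SPC25, which was high in both IPs. Capitals mark CCAAT and TTTGAA on either strand (on the other strand they read in reverse complement). In MKI67 a TTTGAA overlaps a CCAAT of the other strand by 1 base. The positions, all on GRCh38.p14 and upstream of the gene, are chr10:128126424-128126623 (minus strand) for MKI67, chr17:40417897-40418096 (minus) for TOP2A, chr4:121823884-121824083 (minus) for CCNA2, chr5:69166950-69167149 (plus) for CCNB1 and chr2:168890431-168890630 (minus) for SPC25.
MKI67: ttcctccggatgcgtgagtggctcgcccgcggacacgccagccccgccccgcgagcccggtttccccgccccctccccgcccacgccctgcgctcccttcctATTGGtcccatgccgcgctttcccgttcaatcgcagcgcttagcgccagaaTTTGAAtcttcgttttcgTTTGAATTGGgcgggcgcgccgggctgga
TOP2A: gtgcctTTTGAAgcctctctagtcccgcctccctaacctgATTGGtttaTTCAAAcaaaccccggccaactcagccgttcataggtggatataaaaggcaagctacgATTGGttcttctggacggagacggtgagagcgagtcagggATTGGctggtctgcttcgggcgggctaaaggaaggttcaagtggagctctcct
CCNA2: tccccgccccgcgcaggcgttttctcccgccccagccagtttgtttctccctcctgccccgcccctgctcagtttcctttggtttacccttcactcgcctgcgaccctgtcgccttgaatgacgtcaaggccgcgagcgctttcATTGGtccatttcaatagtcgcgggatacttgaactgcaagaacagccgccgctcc
CCNB1: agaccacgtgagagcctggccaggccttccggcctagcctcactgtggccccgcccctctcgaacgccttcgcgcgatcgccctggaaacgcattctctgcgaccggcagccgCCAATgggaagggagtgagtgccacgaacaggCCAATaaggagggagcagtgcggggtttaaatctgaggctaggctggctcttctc
SPC25: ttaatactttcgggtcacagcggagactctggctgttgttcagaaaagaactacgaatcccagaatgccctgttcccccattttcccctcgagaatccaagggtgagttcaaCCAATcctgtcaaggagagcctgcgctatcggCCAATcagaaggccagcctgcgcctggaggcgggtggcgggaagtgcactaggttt
Over these 200 bases CCAAT occurred 2 times in MKI67, 3 times in TOP2A, once in CCNA2 and 2 times each in CCNB1 and SPC25, and TTTGAA occurred 2 times in MKI67 and 2 times in TOP2A. The CCAAT letters were thus present in all 5, low or high in the IPs. In the 250 bases counted above, SPC25 also had 1 TTTGAA, and CCNA2 and CCNB1 had 0. Other spellings of the CHR core were not searched, so these 0 counts do not show that the element is absent.

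The values are the deposited log2 signals, compared only within a probe set. Array means were 4.39 to 4.41 in replicate 1 and 5.26 to 5.27 in replicate 2, and the median level of the 42 genes was higher in every replicate 2 array (10.7 to 10.8) than in any replicate 1 array (8.46 to 9.48). Comparisons are therefore given within each replicate as well. The median level of all genes tested was lower, at 6.45 to 6.78 in replicate 1 arrays and 7.44 to 7.72 in replicate 2 arrays. Medians and shares over all genes tested are thus not matched to the 42 genes for level. Within a construct, AGO2 IP and IgG IP of replicate 2 were nearly alike (r = 0.997 for control vector and 0.992 for miR-21 across the tested genes, which are not independent replicates), while in replicate 1 they were not (0.922 and 0.929). As shown further on, the IPs of replicate 2 grouped by construct in the pattern by which the antibodies differed in replicate 1, which goes against the labels of the control vector AGO2 IP and the miR-21 IgG IP arrays of replicate 2. Whether those 2 labels are exchanged was not tested. Every IP value of replicate 2 below therefore stands for the array so labelled. For the 42 genes, calls of comparisons that use this pair are also given without it, except for the interactions. Medians are given so too, except for either IP against Total RNA, as are leading genes of the construct comparisons. Without the pair, 2 groups have 1 array each. Of 12 T cell markers 11 had a probe set, and all 11 were at or above the filter, with a median level of 8.47 and CD3D at 12.21. Of the markers of 4 other cell types, B cell, monocyte, erythroid and epithelial, 2 of 5, 2 of 5, 1 of 2 and 2 of 5 reached it. The difference between 3' and 5' probe sets of ACTB, a measure of RNA integrity and labelling, was 1.35 to 1.38 in Total RNA of replicate 1, 2.08 to 2.18 in IgG IP, and 4.0 and 1.97 in control vector and miR-21 AGO2 IP, and that of GAPDH was 1.95 and 0.35 in these AGO2 IP arrays. In replicate 2 the ACTB difference was 3.18 to 3.53 in Total RNA, 2.57 to 3.48 in IgG IP and 2.08 to 2.58 in AGO2 IP. The GAPDH difference was 0.14 to 0.22 in Total RNA and 0.44 to 0.46 in IgG IP of replicate 1. In replicate 2 it was 0.58 to 0.71 in Total RNA and at least 1.02 in every IP array. By GAPDH every IP array was thus above the Total RNA arrays of its replicate, which did not hold for ACTB in replicate 2. The part of these 3' to 5' differences in the results was not tested.

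The first comparison asked which mitosis mRNAs were gained or lost in AGO2 IP relative to Total RNA, as the mean of both constructs. MKI67, the chromosome surface protein used as a proliferation marker, and the kinetochore proteins CENPE and CENPF were lower in AGO2 IP, with log2 differences of -2.48, -2.18 and -1.91. CDC25C, the phosphatase that activates CDK1, and CCNA2 (cyclin A2) were higher by 2.22 and 1.54. In limma with the replicate number as a block, 3 of the 42 genes were called higher, against 4.71% of all genes tested, and 10 lower, against 11.3%, at a Benjamini-Hochberg adjusted p under 0.05. In limma without the block 0 of 42 were called (5 had an unadjusted p under 0.05, and the smallest adjusted p was 0.366), and 0% of all genes tested (1230 at an unadjusted p under 0.05). The words rose and fell below refer to calls with the block. The block was an alternative to the fit without it, used because arrays of the same replicate number shifted together. The labels do not say what a number shares. The median difference of the 42 genes was -0.31, against -0.05 over all genes tested. It was -0.65 in replicate 1 and -0.19 in replicate 2. Of the 42 genes, 19 were lower in both replicates (32.9% of all genes tested), 6 were higher in both (25.3%) and 17 had opposite signs (41.8%).

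IgG IP against Total RNA was compared next because it holds what is gained or lost without the AGO2 antibody. The largest falls were in genes that also fell in AGO2 IP: MKI67 (-2.04), CENPE (-1.90), CENPF (-1.64), ASPM (-1.13) and TOP2A (-1.03). SPC25, a subunit of the NDC80 complex that holds microtubules at the kinetochore, rose by 1.24. With the block, limma called 1 of 42 higher (0.296% of all genes tested) and 5 lower (1.62%). Without it, limma called 0 (0% of all genes tested), with 4 of the 42 and 437 of all at an unadjusted p under 0.05. The median was -0.26, against -0.01 over all genes tested, and was -0.37 in replicate 1 and -0.16 in replicate 2. In the replicates, 18 genes were lower in both (30.2% of all), 4 higher in both (23.3%) and 20 of opposite sign (46.4%). Both IP comparisons share the Total RNA arrays, so their values are set side by side and no overlap is drawn from them.

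**Figure D1:**
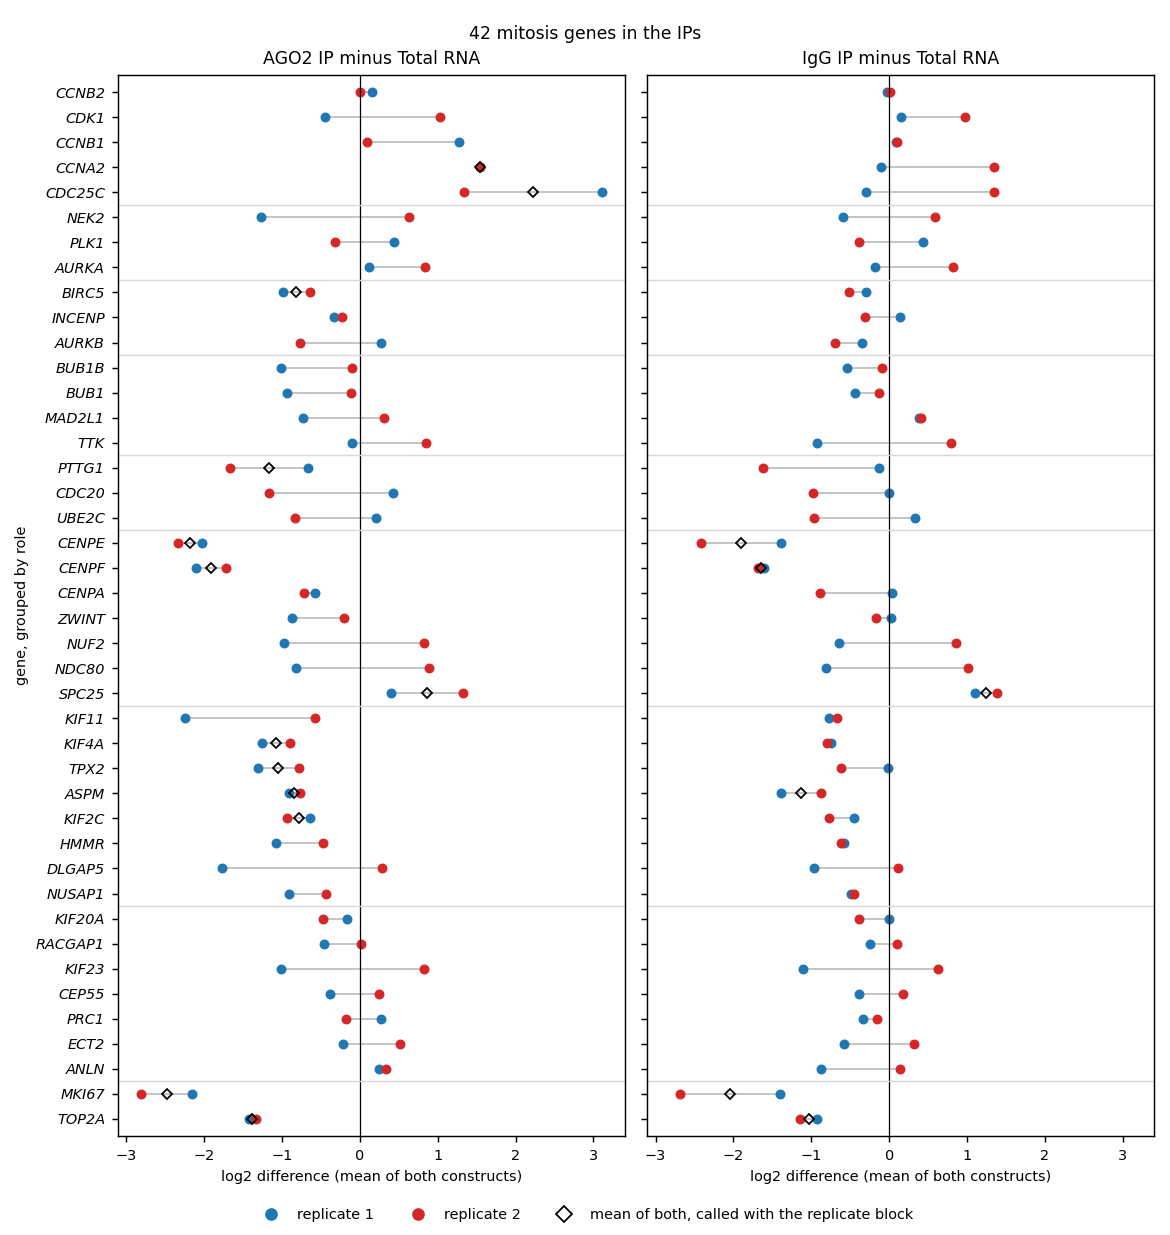
The log2 difference of each of the 42 mitosis genes, grouped by role, in AGO2 IP minus Total RNA (left) and IgG IP minus Total RNA (right). Blue and red points are replicates 1 and 2, each the mean of both constructs, and diamonds mark the mean of genes called by limma with the replicate block. MKI67, CENPE, CENPF and TOP2A lie left of 0 in both replicates and both panels, while genes such as NUF2 and NDC80 lie on either side.

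The 2 chromosome proteins, MKI67 and TOP2A, both fell in both IPs. In replicate 1, MKI67 read 7.78 and 7.98 in Total RNA (control vector first, then miR-21, as in all pairs below), 6.44 and 6.51 in IgG IP, and 5.89 and 5.57 in AGO2 IP. In replicate 2 it read 10.03 and 9.80, 7.39 and 7.07, and 7.38 and 6.82. Every Total RNA array was above every IP array, across replicates as well. MKI67 fell in AGO2 IP (-2.15 in replicate 1 and -2.81 in replicate 2), with a mean of -2.48 ± 0.28 (SE, with the block; limma adjusted p = 0.0051). In IgG IP it fell too (-2.04 ± 0.28, limma adjusted p = 0.013). Its 3 other probe sets gave -2.23, -2.19 and -1.98 for AGO2 IP minus Total RNA, so 4 probe sets of the gene were low.

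TOP2A, the topoisomerase that untangles chromosomes, read 10.38 and 10.54 in Total RNA of replicate 1, 9.36 and 9.70 in IgG IP, and 8.89 and 9.17 in AGO2 IP. The replicate 2 values were 12.73 and 12.82, 11.74 and 11.52, and 11.73 and 11.17. Within each replicate both Total RNA arrays were above the 4 IP arrays, but replicate 2 IP arrays were above replicate 1 Total RNA. TOP2A fell in AGO2 IP (-1.38 ± 0.21; -1.43 and -1.33 by replicate; limma adjusted p = 0.0117) and in IgG IP (-1.03 ± 0.21, limma adjusted p = 0.0453). With each array centred on its median, its IgG IP call was lost. A second probe set gave -1.36, and another, with a mean below the filter, -0.14.

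Among the 7 kinetochore and centromere genes, CENPE and CENPF fell and SPC25 rose. CENPE, the kinesin that moves chromosomes to the spindle equator, read 7.94 and 8.09 in Total RNA of replicate 1, 6.63 and 6.62 in IgG IP, and 5.84 and 6.14 in AGO2 IP. In replicate 2 its values were 9.63 and 9.78, 7.61 and 6.98, and 7.71 and 7.04, so that no IP array reached the lowest Total RNA array. It fell in AGO2 IP (-2.18 ± 0.27; -2.02 and -2.33 by replicate; limma adjusted p = 0.0073) and in IgG IP (-1.90 ± 0.27, limma adjusted p = 0.0144). CENPF, which links kinetochores to dynein regulators, read 8.90 and 9.17, 7.38 and 7.48, and 6.95 and 6.91 in replicate 1, and 10.36 and 10.42, 8.93 and 8.50, and 8.83 and 8.53 in replicate 2. AGO2 IP arrays of CENPF did not overlap Total RNA arrays, and 1 IgG IP array of replicate 2 (8.93) was level with the lowest Total RNA array. CENPF fell in AGO2 IP (-1.91 ± 0.20, limma adjusted p = 0.0044) and in IgG IP (-1.64 ± 0.20, limma adjusted p = 0.0097). Its second probe set gave -1.96, and another, below the filter, 0.46.

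SPC25 went the other way. It read 7.97 and 7.98 in Total RNA of replicate 1, 9.09 and 9.06 in IgG IP, and 8.34 and 8.42 in AGO2 IP, and in replicate 2 it read 8.38 and 8.40, 10.02 and 9.53, and 9.98 and 9.45. Within each replicate all 4 IP arrays were above both Total RNA arrays, and the 2 IgG IP arrays of replicate 1 were above the AGO2 IP arrays. SPC25 rose by 1.24 ± 0.24 in IgG IP (limma adjusted p = 0.0411) and by 0.86 ± 0.24 in AGO2 IP (limma adjusted p = 0.0427). With each array centred on its median, SPC25 was called in neither. NUF2 and NDC80, partners of SPC25 in the same complex, differed in sign between the replicates: AGO2 IP minus Total RNA was -0.98 and 0.83 for NUF2, and -0.82 and 0.88 for NDC80. IgG IP gave -0.65 and 0.86 for NUF2, and -0.82 and 1.01 for NDC80. CENPA, the centromeric histone H3 variant (-0.58 and -0.71 in AGO2 IP), and ZWINT, a kinetochore protein that helps recruit the checkpoint (-0.87 and -0.21), were lower in both replicates and were not called.

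**Figure D2:**
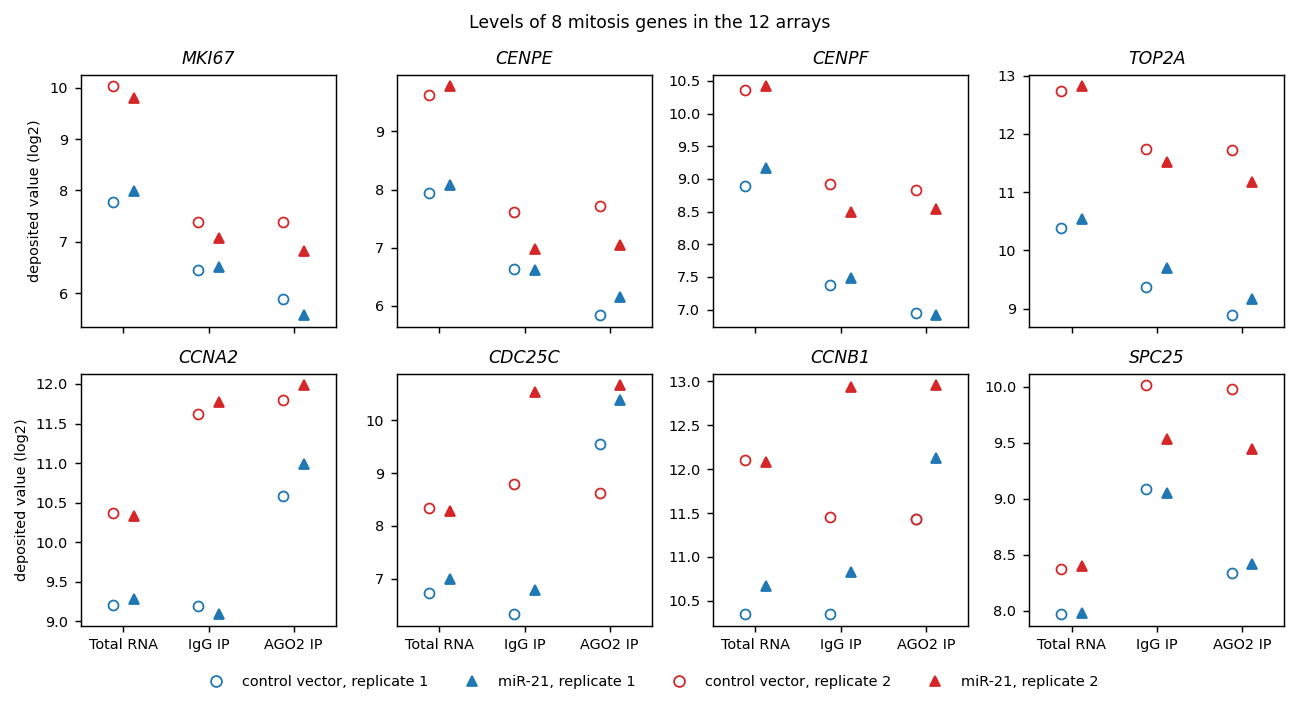
Deposited log2 values of 8 mitosis genes in the 12 arrays, by fraction. Circles are control vector and triangles miR-21, blue is replicate 1 and red replicate 2, and each panel has its own axis. MKI67, CENPE, CENPF and TOP2A step down from Total RNA in both replicates, SPC25 steps up, and CDC25C and CCNB1 of replicate 2 split by construct in both IPs.

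Of the cyclin and CDK1 genes, 2 of 5 rose in AGO2 IP and none was called in IgG IP. CDC25C read 6.73 and 6.99 in Total RNA of replicate 1, 6.33 and 6.79 in IgG IP, and 9.55 and 10.39 in AGO2 IP. In replicate 2 it read 8.35 and 8.27 in Total RNA, 8.79 and 10.53 in IgG IP, and 8.63 and 10.67 in AGO2 IP. In replicate 1 AGO2 IP stood above both other fractions, and in replicate 2 the 2 miR-21 IP arrays stood above the rest, whichever the antibody. CDC25C rose by 3.11 and 1.34 in the replicates, on average by 2.22 ± 0.63 in AGO2 IP (limma adjusted p = 0.0434), and was 0.52 ± 0.63 in IgG IP (limma adjusted p = 0.697). After cyclic loess scaling it was not called. Its other probe sets gave 1.17 and, below the filter, 0.22.

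CCNA2 read 9.20 and 9.28 in Total RNA of replicate 1, 9.19 and 9.09 in IgG IP, and 10.59 and 10.98 in AGO2 IP. The replicate 2 readings were 10.37 and 10.33, 11.62 and 11.77, and 11.80 and 11.99, with both IPs above Total RNA. It rose in AGO2 IP by 1.54 in both replicates (mean 1.54 ± 0.32, limma adjusted p = 0.0207), and a second probe set gave 1.95. In IgG IP the differences were -0.10 and 1.35. CCNB1 (cyclin B1, the partner of CDK1) read 10.35 and 10.66 in Total RNA of replicate 1, 10.35 and 10.83 in IgG IP, and 11.43 and 12.13 in AGO2 IP, and in replicate 2 read 12.11 and 12.08, 11.45 and 12.94, and 11.43 and 12.96. As for CDC25C, AGO2 IP was high in replicate 1 and the miR-21 IPs were high in replicate 2. Its differences of 1.27 and 0.10 were not called (limma with the block, adjusted p = 0.176). CCNB2 (cyclin B2) differed by 0.16 and less than 0.01 in size, and CDK1, the kinase that drives mitotic entry, by -0.44 and 1.03.

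The mitotic entry kinases were not called in either IP. AURKA, which matures centrosomes, gave 0.12 and 0.84 in AGO2 IP minus Total RNA. PLK1, which acts from centrosomes to cytokinesis, gave 0.44 and -0.31. NEK2, which splits centrosomes, gave -1.27 and 0.64. In the chromosomal passenger complex, BIRC5 (survivin) fell in AGO2 IP (-0.82 ± 0.21; -0.99 and -0.64 by replicate; limma adjusted p = 0.0337). Its other probe sets gave -0.56, -1.25 and 0.25 and so disagreed in sign. The kinase of that complex, AURKB, gave 0.28 and -0.76, and its scaffold INCENP gave -0.33 and -0.23.

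None of the 4 spindle checkpoint genes was called. BUB1 and BUB1B, kinase-related proteins that hold the checkpoint signal at kinetochores, were lower in both replicates (-0.94 and -0.11, and -1.01 and -0.10). MAD2L1, which binds CDC20 to block it, gave -0.73 and 0.32, and TTK, the kinase that starts the signal, gave -0.10 and 0.85. Of the anaphase genes, PTTG1 (securin, the inhibitor of separase) fell in AGO2 IP (-1.17 ± 0.30, limma adjusted p = 0.0346). It read 10.90 and 11.32 in Total RNA of replicate 1, 10.85 and 11.10 in IgG IP, and 10.33 and 10.55 in AGO2 IP. In replicate 2 it read 12.56 and 12.50, 10.82 and 11.00, and 10.68 and 11.04. Total RNA and IgG IP overlapped in replicate 1 and were far apart in replicate 2, and IgG IP was not called (-0.14 and -1.62). After cyclic loess scaling, PTTG1 was not called in AGO2 IP either. PTTG1 shares sequence with its close copies in the genome, so probes could read more than 1 gene. CDC20, the activator of the anaphase-promoting complex, gave 0.42 and -1.17 in AGO2 IP, and UBE2C, its ubiquitin-conjugating enzyme, 0.21 and -0.83.

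Of the 8 spindle motor and microtubule genes, 4 fell in AGO2 IP. They included KIF4A, a chromokinesin (-1.07 ± 0.22, limma adjusted p = 0.0191), TPX2, the activator of AURKA on the spindle (-1.05 ± 0.29, limma adjusted p = 0.0407), and KIF2C, a kinesin that shortens microtubules (-0.78 ± 0.19, limma adjusted p = 0.0284). After cyclic loess, KIF2C was not called. ASPM, a protein of spindle poles, read 9.45 and 9.55 in Total RNA of replicate 1, 7.94 and 8.27 in IgG IP, and 8.27 and 8.90 in AGO2 IP, and in replicate 2 read 11.13 and 11.24, 10.45 and 10.17, and 10.38 and 10.45. All IP arrays of ASPM were below Total RNA of the same replicate. It fell in AGO2 IP (-0.84 ± 0.21, limma adjusted p = 0.0299) and in IgG IP (-1.13 ± 0.21, limma adjusted p = 0.0325). KIF11, the motor that pushes spindle poles apart, read 5.66 in the control vector AGO2 IP array of replicate 1, against 7.02 with miR-21 and 8.59 in both Total RNA arrays. That control vector array also had the highest ACTB difference, 4.0, whose part in the value was not tested. KIF11 gave -2.25 and -0.57 and was not called (limma with the block, adjusted p = 0.0609). Of the remaining spindle genes, HMMR (-1.08 and -0.48) and NUSAP1 (-0.90 and -0.44), which both bind spindle microtubules, were lower in both replicates, and DLGAP5, a stabiliser of kinetochore fibres, gave -1.77 and 0.29.

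None of the 7 cytokinesis genes was called in AGO2 IP or in IgG IP against Total RNA. ANLN, the anillin of the contractile ring, was higher in AGO2 IP in both replicates (0.25 and 0.34), and KIF20A, a kinesin of the central spindle, was lower in both (-0.17 and -0.47). KIF23, which with RACGAP1 forms centralspindlin, gave -1.01 and 0.83, and RACGAP1 gave -0.46 and 0.02. ECT2, the exchange factor that activates RhoA at the cleavage furrow, gave -0.21 and 0.52, PRC1, which bundles midzone microtubules, 0.27 and -0.18, and CEP55, a midbody protein of abscission, -0.38 and 0.25. In AGO2 IP against Total RNA, 5 of the 7 thus changed sign between the replicates. In IgG IP 6 of the 7 did, and the lowest value was -1.11 (KIF23 in replicate 1).

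Calls depended on single arrays. With the block, 1 array was left out at a time. Of the 13 calls in AGO2 IP against Total RNA, 0 were left when the array dropped was AGO2 IP of miR-21 cells, replicate 2. There were 3 when it was AGO2 IP of miR-21 cells, replicate 1, or Total RNA of either construct, replicate 2. There were 6 when it was Total RNA of miR-21 cells or AGO2 IP of control cells, both of replicate 1. MKI67, CENPE and CENPF were called in 11 of 12 such fits, TOP2A in 8, KIF4A and CCNA2 in 7, PTTG1 and KIF2C in 6, ASPM in 5, BIRC5 in 4, CDC25C and TPX2 in 3, and SPC25 in 1. The signs of these 13 genes were kept in all 12 fits: MKI67 ran from -2.74 to -2.22, CENPE from -2.36 to -1.99, CCNA2 from 1.36 to 1.72 and CDC25C from 1.52 to 2.92. Of the 6 calls in IgG IP, 0 were left on dropping IgG IP of control cells, replicate 1, or, in replicate 2, Total RNA or IgG IP of either construct. There were 3 on dropping, in replicate 1, Total RNA of either construct, IgG IP or AGO2 IP of miR-21 cells, or, in replicate 2, AGO2 IP of miR-21 cells. There MKI67, CENPE and CENPF were called in 7 of 12 fits, and ASPM, TOP2A and SPC25 in 2.

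Within replicate 1 alone, an additive limma model of fraction and construct with 2 residual degrees of freedom called 3 of 42 genes higher in AGO2 IP than in Total RNA (13% of all genes tested), CCNA2, CCNB1 and CDC25C, and 22 lower (23.3%). Within replicate 2 alone 8 were called higher (15.8%), CCNA2, CDK1, AURKA, TTK, NUF2, NDC80, SPC25 and KIF23, and 10 lower (19.4%). Those 10 were BIRC5, PTTG1, CENPE, CENPF, KIF2C, KIF4A, TPX2, ASPM, TOP2A and MKI67, and each was also called lower within replicate 1. NUF2, NDC80 and KIF23 were called lower within replicate 1 and higher within replicate 2. No share of all genes tested is given for calls in both replicates, so these counts have no background. In IgG IP, 1 gene was called higher within replicate 1 (SPC25; 0.772% of all) and 8 lower (2.99%). Within replicate 2, 7 were called higher (14.7%) and 9 lower (16.6%). Errors of such fits cover only the spread between 6 arrays of 1 replicate number.

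AGO2 IP against IgG IP asked what the AGO2 antibody brought down beyond the IgG background. Over both replicates limma called 0 of 42 mitosis genes with or without the block, and 0% of all genes tested. At an unadjusted p under 0.05 there were 0 of the 42 without the block and 4 with it (29 and 663 of all genes tested). The median was -0.18, against -0.08 over all genes tested, and was -0.38 in replicate 1 and -0.01 in replicate 2. In replicate 1 the differences ran from -1.48 (KIF11) to 3.41 (CDC25C), and in replicate 2 from -0.20 to 0.20. CDC25C was 3.22 higher in AGO2 IP than in IgG IP of replicate 1 in control vector cells and 3.60 higher in miR-21 cells, and in replicate 2 it was -0.16 and 0.14. By the labels the gain was thus in replicate 1 alone, in both constructs. This reading rests on the labels in doubt, because without that pair replicate 2 set miR-21 AGO2 IP at 10.67 against control vector IgG IP at 8.79.

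Within replicate 1 alone, limma called 6 mitosis genes higher in AGO2 IP than in IgG IP, against 12.5% of all genes tested, and 11 lower, against 11.5%. The 6 were CCNA2 (1.65), CCNB1 (1.19), CDC25C (3.41), TTK (0.83), PRC1 (0.61) and ANLN (1.12). The 11 were KIF11 (-1.48), TPX2 (-1.30), MAD2L1 (-1.11), ZWINT (-0.90), DLGAP5 (-0.80), MKI67 (-0.75), SPC25 (-0.70), BIRC5 (-0.70), NEK2 (-0.69), CENPE (-0.64) and CDK1 (-0.59). Of the cyclin and CDK1 genes, CCNA2, CCNB1 and CDC25C were thus called higher, CDK1 was called lower, and CCNB2 (0.19) was not called. Within replicate 2 alone, 0 of 42 were called, and 0% of all genes tested.

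By the labels, the mitosis genes of replicate 2 differed by construct in both IPs, and in the pattern by which AGO2 IP differed from IgG IP in replicate 1. Across the 42 genes, AGO2 IP minus IgG IP of replicate 1 and miR-21 minus control vector in the IPs of replicate 2 (mean of both antibodies) had Pearson's r = 0.71 and Spearman's rho = 0.71. Across all genes tested they had 0.67 and 0.60. These comparisons share no array, and the points share probe sets and fraction. The labels of the doubted pair decide whether these replicate 2 differences count as construct or antibody differences, and they were not tested. All 6 genes called higher in AGO2 IP within replicate 1 were higher with miR-21 in the IPs of replicate 2, against 90.4% of the 1600 tested genes called so. All 11 called lower were lower with miR-21, against 90.2% of 1480. CDC25C was 1.89 higher with miR-21 in these IPs, CCNB1 1.51 and ANLN 0.37, and KIF11 was 0.85 lower. AURKB (1.59), CDC20 (1.36) and PLK1 (1.15) were higher there with smaller replicate 1 antibody differences of 0.63, 0.43 and 0.01.

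**Figure D3:**
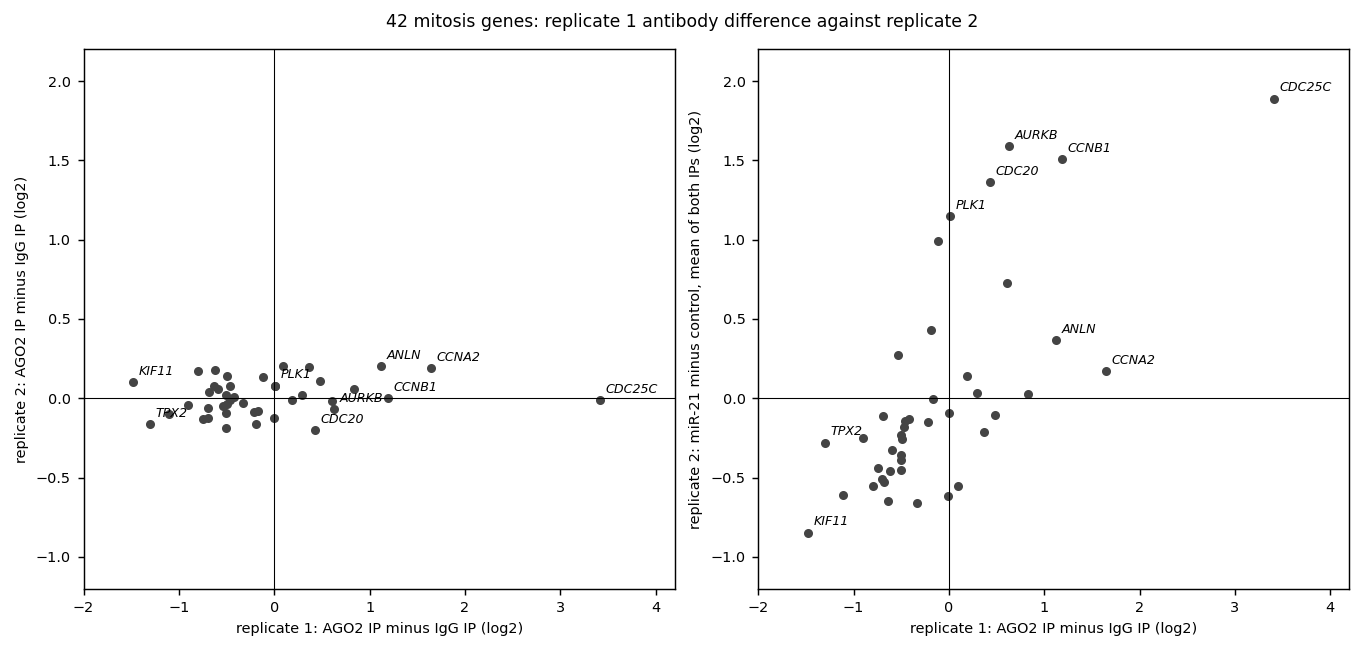
Each point is 1 of the 42 mitosis genes, with AGO2 IP minus IgG IP of replicate 1 on the x axis (log2, mean of both constructs). The y axis is the same antibody difference in replicate 2 (left), which lies within -0.20 to 0.20, or miR-21 minus control vector in the IPs of replicate 2 (right), which follows the x axis with r = 0.71.

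Without the control vector AGO2 IP and the miR-21 IgG IP arrays of replicate 2, limma with the block on 10 arrays called 5 mitosis genes in AGO2 IP against IgG IP. CDC25C was 2.87 ± 0.41 (limma adjusted p = 0.0129) and CCNB1 1.12 ± 0.25 (limma adjusted p = 0.0423) higher, against 5.95% of all genes tested. KIF11 (-1.44), TPX2 (-1.19) and MAD2L1 (-1.11) were lower, against 1.47%. AGO2 IP against Total RNA then gave 3 higher (8.58% of all) and 15 lower (13.3%). CCNA2 (1.59), CCNB1 (1.01) and CDC25C (2.81) were the 3 higher genes, so that CCNB1 was gained and SPC25 lost. KIF11 (-2.05), HMMR (-1.06), NUSAP1 (-0.84), BUB1B (-0.84), CENPA (-0.77) and ZWINT (-0.76) were among the 15 lower, and PTTG1 was no longer called. IgG IP against Total RNA gave 1 call, CENPF at -1.53, with 0.351% of all genes tested lower and 0.0468% higher. The median of the 42 in AGO2 IP against IgG IP was then -0.38. This choice of arrays was made with their likeness known. It left replicate 2 with miR-21 AGO2 IP and control vector IgG IP, so antibody and construct cannot be told apart in its IPs. Likeness of the replicates in AGO2 IP against IgG IP was thus built into the choice. The 5 calls of that comparison are therefore no separate test of the antibody.

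The construct comparison asked how miR-21 changed mitosis mRNAs in each fraction. In Total RNA limma called 0 of 42 in either fit (0% of all genes tested; 0 of the 42 at an unadjusted p under 0.05 in either fit, and 0 and 3 of all genes tested without and with the block). The median difference was 0.15, against 0.02 over all genes tested. In replicate 1 it was 0.29, with 39 of 42 genes higher with miR-21 (57.4% of all genes tested). In replicate 2 it was 0.00, with 22 of 42 higher (49.8%). In both replicates 21 genes were higher (29.1% of all) and 2 lower (21.7%). Replicate 2 differences stayed between -0.26 and 0.16. In RNA from whole cultures, more cells in mitosis and more mRNA per cell cannot be told apart.

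By the rule for naming, the genes highest in both replicates of Total RNA were AURKA, KIF4A and BUB1. AURKA read 9.29 in control vector and 9.82 in miR-21 Total RNA of replicate 1, and 11.54 and 11.70 in replicate 2, a mean difference of 0.35. KIF4A read 7.71 and 8.27, then 9.28 and 9.40 (0.34). BUB1 read 9.01 and 9.51, then 11.01 and 11.15 (0.32). The 2 genes lower in both were AURKB, at 8.23 and 8.13, then 8.94 and 8.68 (-0.18), and KIF11, at 8.59 and 8.59, then 9.56 and 9.56 (-0.01). The 3 higher genes differed more in replicate 1 than in replicate 2, and KIF11 was level.

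In IgG IP 0 of 42 genes were called in either fit (0% of all; 0 of the 42 at an unadjusted p under 0.05, and 4 and 123 of all genes tested without and with the block). The median was 0.03, against 0.04 over all. In replicate 1 it was 0.22, with 35 higher (54.1% of all genes tested), and in replicate 2 it was -0.12, with 14 higher (52.9%). In both replicates 11 were higher (30.4%) and 4 lower (23.3%). CDC25C was the highest at a mean of 1.10 (0.46 and 1.74), then CCNB1 at 0.98 (0.47 and 1.48) and CDC20 at 0.88. CDC20 read 9.81 in control vector and 10.18 in miR-21 IgG IP of replicate 1, and 9.86 and 11.24 in replicate 2. The lowest in both were KIF11, at 7.92 and 7.72, then 9.29 and 8.48 (-0.51), DLGAP5, at 8.47 and 8.46, then 11.50 and 10.86 (-0.32), and CENPE (-0.32). Differences in IgG IP were larger in replicate 2 than in replicate 1 for each of these 6 genes. Replicate 2 here used the miR-21 IgG IP array whose label is in doubt. Without the doubted pair, limma with the block called 0 of 42 (0% of all genes tested; 0 of the 42 and 154 of all had an unadjusted p under 0.05), and the median was 0.13, with 28 of 42 higher (54.6% of all). CDC25C then turned to -0.067 and CENPE to 0.16, while CCNB1 was 0.56, CDC20 0.80, KIF11 -0.29 and DLGAP5 -0.33. When only IgG IP of miR-21 cells, replicate 2, was dropped, CDC25C was -0.30 and CENPE 0.22 with the block.

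In AGO2 IP, where mRNAs bound through miR-21 would be sought, 0 of 42 genes were called in either fit (0% of all). At an unadjusted p under 0.05, limma without the block gave 0 of the 42, and with the block it gave UBE2C and CCNB1 (both with a limma adjusted p of 1.00). All genes tested gave 11 and 353. The median was 0.16, against 0.07 over all genes tested. In replicate 1 it was 0.45, with 39 of 42 higher with miR-21 (60.7% of all), and in replicate 2 it was -0.19, with 14 higher (51.9%). In both replicates 14 were higher (29.5%) and 3 lower (16.7%). Mitosis genes of AGO2 IP thus lay mostly above 0 in replicate 1 and mostly below 0 in replicate 2. The replicate 1 shift compares 2 arrays that also differed in the 3' to 5' differences of ACTB (4.0 with control vector, 1.97 with miR-21) and GAPDH (1.95 and 0.35), whose part in it was not tested. Replicate 2 used the control vector AGO2 IP array whose label is in doubt. Leaving out the doubted pair leaves control vector AGO2 IP with its replicate 1 array alone, the array with the ACTB difference of 4.0. Without the doubted pair, limma with the block called 0 of 42 (0% of all genes tested; 3 of the 42 and 1086 of all had an unadjusted p under 0.05), and the median was 0.47, with 40 of 42 higher (59.9% of all).

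**Figure D4:**
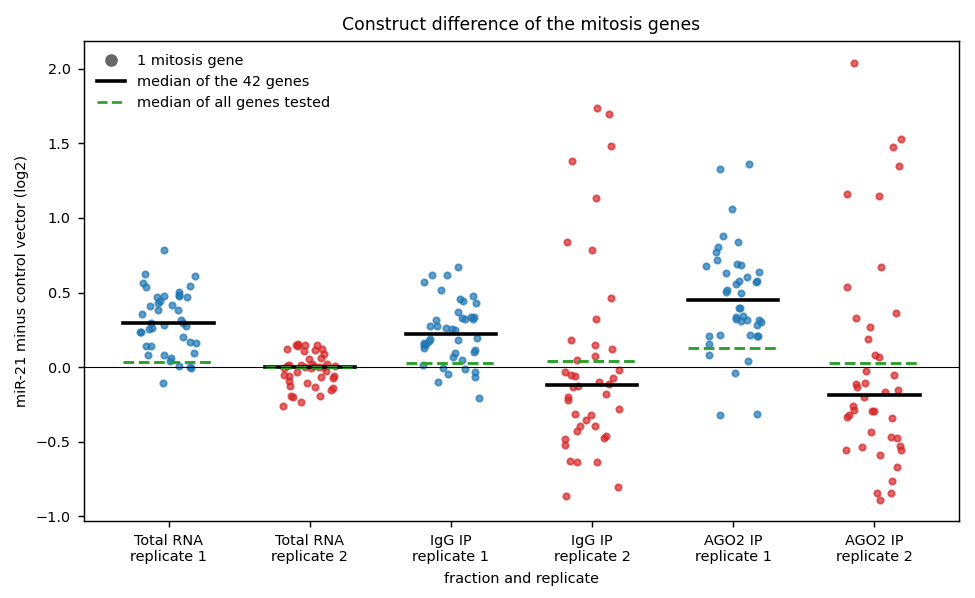
The difference between miR-21 and control vector (log2) of each of the 42 mitosis genes, by fraction and replicate. Black bars are the median of the 42 genes and green dashes the median of all genes tested. The 42 genes lie mostly above 0 in replicate 1 (medians 0.29, 0.22 and 0.45) and around or below 0 in replicate 2 (0.00, -0.12 and -0.19).

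UBE2C read 9.66 in control vector and 10.99 in miR-21 AGO2 IP of replicate 1, and 10.30 and 11.45 in replicate 2, a mean difference of 1.24. In Total RNA it read 9.73 and 10.51 in replicate 1 and 11.77 and 11.63 in replicate 2. CDC25C differed by 0.84 and 2.04 (mean 1.44), and CCNB1 by 0.69 and 1.53 (mean 1.11). CDC25C, CCNB1 and UBE2C were also higher with miR-21 in IgG IP of both replicates, but without the doubted pair CDC25C was -0.067 there. Without the doubted pair, the AGO2 IP differences were 1.09 for UBE2C, 0.47 for CCNB1 and 0.27 for CDC25C. The 3 genes lower in both replicates of AGO2 IP were MKI67 (-0.31 and -0.56, mean -0.44), INCENP, at 4.26 and 3.94, then 5.81 and 5.48 (-0.33), and CENPF (-0.16). Without the doubted pair, MKI67 was -0.47 and INCENP -0.24, and CENPF turned to 0.037. The other probe sets of MKI67 gave 0.43, 0.06 and -0.08, so its probe sets disagreed in sign on the construct.

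The construct difference in AGO2 IP was also set against that in Total RNA and in IgG IP as an interaction. Limma called 0 of 42 in each, in either fit, and 0% of all genes tested. None of the 42 reached an unadjusted p under 0.05 in either fit, and of all genes tested 0 and 60 did against Total RNA, and 0 and 39 against IgG IP, without and with the block. The medians of the 42 were -0.01 (0.15 in replicate 1 and -0.17 in replicate 2) and 0.09 (0.25 and -0.05), and without the doubted pair they were 0.30 and 0.34. These values do not show that the construct acted alike in the fractions. Without the pair, control vector AGO2 IP again rested on its replicate 1 array alone.

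Other mitosis genes outside the 42 moved in the same comparisons. A list of 109 further mitosis genes (condensin, cohesin, anaphase-promoting complex, other kinetochore, spindle and cell cycle regulators) had 106 tested. In AGO2 IP against Total RNA, 1 rose and 20 fell with the block (4.71% and 11.3% of all genes tested), with a median of -0.33. KIFC1, a minus-end kinesin, rose by 1.26. The largest falls were in KNL1, the kinetochore scaffold (-1.94), LIN37, a DREAM subunit (-1.75), NIPBL, the cohesin loader (-1.68), and CENPM (-1.44). In IgG IP, 1 rose (0.296% of all genes tested), KIFC1 by 1.51, and 5 fell (1.62%), led by KNL1 (-1.92), NIPBL (-1.42), PDS5B, a cohesin regulator (-1.26), and KNTC1, of the checkpoint complex at kinetochores (-1.21). Of 55 DNA replication genes 54 were tested. In AGO2 IP none rose and 18 fell (median -0.31), and in IgG IP 1 fell, GINS4 of the replicative helicase (-1.01), against the same shares of all genes tested. None of either list was called by limma with the block by construct or in AGO2 IP against IgG IP, where 7 of the 106 and 4 of the 54 had an unadjusted p under 0.05.

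Of the 42 genes, 21 had other probe sets, 38 in all. For AGO2 IP minus Total RNA, 28 of these had the sign of the chosen probe set and 10 had the opposite sign. Of the 29 whose mean was at or above the filter, 24 had the same sign. The 5 that disagreed above the filter were 1 each of AURKB (0.09), MAD2L1 (0.17), BIRC5 (0.25), NEK2 (0.27) and BUB1 (0.56). BIRC5 was the called gene among them.

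**Figure D5:**
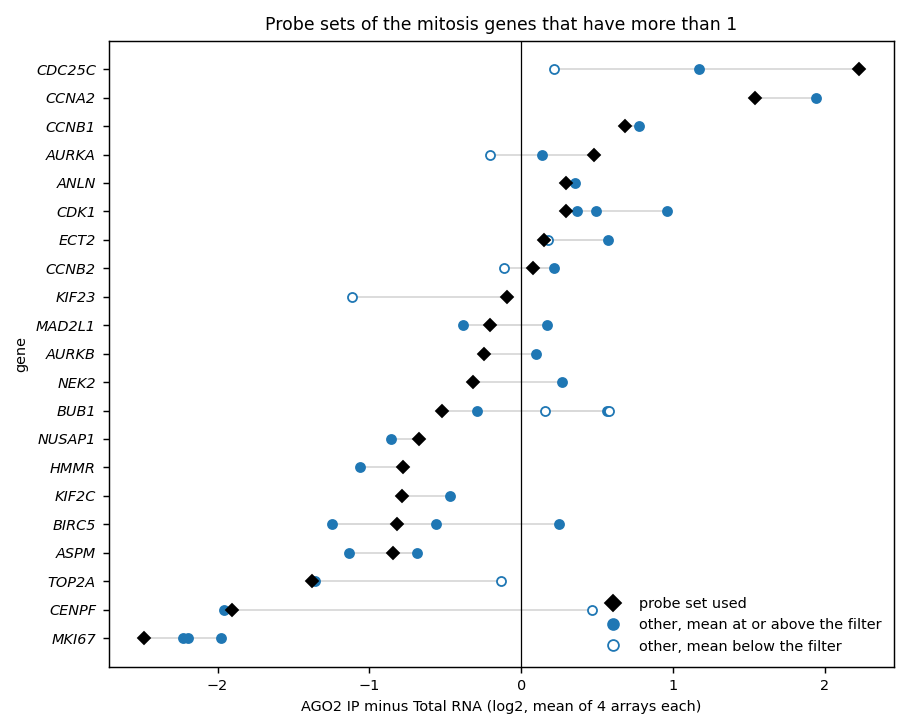
AGO2 IP minus Total RNA (log2, mean of 4 arrays each) for every single-symbol probe set of the 21 mitosis genes that have more than 1. Diamonds are the probe sets used, filled circles other probe sets with a mean at or above the filter of 4.02, and open circles those below it. The 4 probe sets of MKI67 all lie near -2 or lower, and those of BIRC5 lie on both sides of 0.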

How the data were processed

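RNA of 12 samples was measured on Affymetrix arrays, 1 array each. The authors deposited log2 values made with RMA, per the submitters' processing notes. The sources used here give neither its version and settings nor whether all arrays were normalized together. Of 54675 probe sets per array, 41091 had a single gene symbol in the platform annotation, 41037 of them current.

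The tests used R 4.3.3 and limma 3.58.1. All 12 arrays entered 1 model with a mean per group and no term for the replicate (6 residual degrees of freedom). Adding the replicate number as a block left 5. The labels number the replicates without saying what a number shares. Arrays of 1 number deviated together from the group means, with correlations of 0.468 to 0.873 (median 0.601) over the 15 pairs of groups. The number was therefore used as a block, and blocked values stand beside the others. These correlations show a shift shared by the arrays of 1 number and do not show paired cultures. Nothing says that replicates came from separate cultures, so p-values measure only the spread between these arrays, and 2 arrays per group limit the precision.

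Genes with a mean under 4.02, the median of all probe sets that are not controls, were not tested. Calls, in 8 contrasts, needed an adjusted p (Benjamini-Hochberg, all 12824 genes) under 0.05. Scripts were tested on simulated data. The members, gene lists and markers were chosen with earlier results of these data known. Values in every array were given for up to 5 called rises and 5 falls per IP comparison, and for up to 3 highest and 3 lowest genes of the same sign in both replicates per construct comparison. Up to 4 related genes per direction were named. A relation to protein length was not run. Figures used Python 3.11.15, matplotlib 3.10.9 and pandas 2.3.3.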

Additional observations from a re-analysis of the deposited data

How the results depend on the processing

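Without the replicate block, limma called 0 mitosis genes in every contrast, also after median centring, cyclic loess, no filter or a mean over probe sets. With the replicate block, AGO2 IP against Total RNA gave 13 calls, 12 after median centring, 11 after cyclic loess, 12 with no filter, 11 with the mean of probe sets and 18 when AGO2 IP of control cells and IgG IP of miR-21 cells, both of replicate 2, were dropped, and 25 within replicate 1 and 18 within replicate 2. IgG IP against Total RNA gave 6, then 4, 6, 6, 3, 1, 9 and 16 in that order. AGO2 IP against IgG IP gave 0 in each except 5 without those arrays and 17 within replicate 1. The replicate block changed no other call. Leaving out 1 array gave 0 to 19 calls in AGO2 IP against Total RNA and 0 to 7 in IgG IP against Total RNA.

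The members' median in AGO2 IP against Total RNA was -0.65 within replicate 1. Without those arrays of replicate 2, the median interaction was 0.30 against Total RNA and 0.34 against IgG IP. Control vector AGO2 IP then rested on its replicate 1 array alone. Leaving out 1 array moved medians widely, because without the block a group is then left with 1 replicate level: -0.90 to 0.13 for AGO2 IP against Total RNA, -0.70 to 0.20 for IgG IP against Total RNA, -0.74 to 0.42 for AGO2 IP against IgG IP, -0.69 to 0.99, -0.86 to 1.16 and -1.09 to 1.23 for the construct in Total RNA, IgG IP and AGO2 IP, and -1.14 to 1.11 and -1.02 to 1.23 for its interactions with Total RNA and IgG IP. With the block the interaction medians were -0.39 to 0.30, with 0.26 when control AGO2 IP of replicate 2 was dropped, and -0.26 to 0.42. With the block, medians of both IPs against Total RNA stayed below 0 (-0.44 to -0.27 and -0.37 to -0.13).

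For 31 named differences the reference was limma without the block, in which no mitosis gene was called. Of 1116 settings, 903 kept its direction and side of the threshold, which means that they gave no call. In 178 the direction was kept and the gene became called. The remaining 35 reversed, all of construct differences, none of which was called. The 903 settings are thus no support for the calls made with the block. Without those arrays of replicate 2, CENPE (0.16) and CDC25C (-0.067) in IgG IP and CENPF (0.037) in AGO2 IP reversed. Leaving out 1 array without the block gave, in Total RNA, AURKB -0.54 to 0.17, KIF11 -0.49 to 0.48, AURKA -0.78 to 1.47, KIF4A -0.45 to 1.13 and BUB1 -0.68 to 1.32. In IgG IP it gave KIF11 -1.19 to 0.18, DLGAP5 -1.84 to 1.19, CENPE -0.81 to 0.17, CDC25C -0.77 to 2.97 and CCNB1 -0.075 to 2.03. In AGO2 IP it gave MKI67 -1.18 to 0.31, INCENP -1.11 to 0.45 and CENPF -1.10 to 0.77. With the block, AURKB reached 0.14 and 0.047, KIF11 0.35 (2 arrays), AURKA -0.11 and BUB1 -0.011 in Total RNA, CDC25C -0.30 and CENPE 0.22 in IgG IP, and CENPF 0.082 in AGO2 IP. For arrays no depth applies.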
